A study of Mus musculus with 6 samples.

Results

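Acute phase plasma proteins are secreted by the liver, and their genes are among those whose RNA the liver makes more of, or less of, during inflammation, infection or injury. Interleukin-6, acting through STAT3, and interleukin-1, acting through NF-kappaB and C/EBP factors, are the classical signals to hepatocytes. In the mouse, *Saa1*, *Saa2* and *Saa3* and lipocalin 2 are strongly inducible, whereas haptoglobin and hemopexin are abundant in plasma already at rest. The 10 genes described here were chosen by name: the serum amyloid genes *Saa1*, *Saa2*, *Saa3* and *Saa4*, the orosomucoid genes *Orm1* and *Orm2*, *Lcn2*, *Hp*, *Hpx* and *Apcs*. Each matched 1 row of the deposited table by its Ensembl ID, so that they are 10 of 56691 genes.

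Liver RNA of 6 pregnant dams was sequenced, 3 named KPF and 3 named WPF. KPF dams were h*Chrebp*-KO (*Chrebp* flox/flox mice that carried 1 copy of Alb-Cre, which removes exon 2 of *Mlxipl* in cells with an active albumin promoter), and WPF dams carried the same floxed alleles without Cre, although the sample labels call them wild-type. The description without Cre is that of the study's methods. Both groups ate a high-fructose diet (HFrD) from Day 0 to Day 17 of pregnancy, and the dams' age is not given in the sources used here. ChREBP, the product of *Mlxipl*, is a transcription factor activated by sugar metabolites that drives glycolytic and lipogenic genes, and the comparison asks which genes differ in liver when hepatocytes lack it under HFrD. No group on a normal diet and no non-pregnant group was analysed here, so the effect of diet or of pregnancy on these genes was not addressed.

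The libraries held between 10694496 and 14496630 counted reads, with the KPF totals all under the WPF totals. Levels are given as CPM, the count scaled to a common library size after TMM scaling, and a list of 3 values follows the order of KPF replicates 1, 2 and 3 or WPF replicates 2, 3 and 4. *Mlxipl* had 182, 709 and 860 CPM in KPF dams against 974, 1277 and 891 CPM in WPF dams. All KPF libraries were thus below all WPF libraries, though by a narrow margin between KPF replicate 3 and WPF replicate 4. Of all genes tested, 8.15% had every KPF library below every WPF library. The log2 fold change of *Mlxipl* was -0.84 (SE 0.53, adjusted p = 0.584, edgeR). A count over the whole gene does not show the deletion of 1 exon by itself. Hepatocyte markers (7 genes of the list in the table, all tested and none called) summed to 92053, 86094 and 110710 CPM in KPF dams and to 183190, 111070 and 112360 CPM in WPF dams. The KPF sums were thus all below the WPF sums, by a narrow margin between KPF replicate 3 and WPF replicate 3. By the rule for calls given below, 9.81% of all genes tested were called in either direction. Most of each sum was *Alb*, at 65832, 69063 and 91390 CPM in KPF and 150690, 92643 and 90628 CPM in WPF. The log2 fold change was negative for *Alb*, *Ttr*, *Trf* and *Cps1* and positive for *Apoa1*, *Cyp2e1* and *Hnf4a*. *Alb*, *Ttr*, *Trf* and *Apoa1* also belong to the negative acute phase genes listed below. The sum by itself does not measure hepatocyte content, and the part of the lower KPF sums in the members' values was not tested. KPF replicate 2 also carried 2281 CPM of 4 striated muscle genes, against at most 8.41 CPM in any other library, with all 4 called higher.

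The stretch upstream of the start site is shown first for the genes on which the results turn: *Saa1* and *Saa2*, a pair of near-identical copies read in opposite directions, *Lcn2*, and *Orm2* with its copy *Orm3*. The sequences are the 250 bases before the start in RefSeq's annotation of GRCm38.p6, written 5′ to 3′ on the strand of the gene, with a match to the C/EBP motif in capitals. Their places are chr7:46742981-46743230 (minus strand) for *Saa1*, chr7:46751583-46751832 (plus strand) for *Saa2*, chr2:32387740-32387989 (minus strand) for *Lcn2*, chr4:63362199-63362448 (plus strand) for *Orm2* and chr4:63355908-63356157 (plus strand) for *Orm3*.
Saa1: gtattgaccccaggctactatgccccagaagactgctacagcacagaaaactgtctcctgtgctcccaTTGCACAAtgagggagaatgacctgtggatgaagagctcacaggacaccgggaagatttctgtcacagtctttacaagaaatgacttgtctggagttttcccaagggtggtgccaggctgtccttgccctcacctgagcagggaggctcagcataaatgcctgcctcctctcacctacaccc
Saa2: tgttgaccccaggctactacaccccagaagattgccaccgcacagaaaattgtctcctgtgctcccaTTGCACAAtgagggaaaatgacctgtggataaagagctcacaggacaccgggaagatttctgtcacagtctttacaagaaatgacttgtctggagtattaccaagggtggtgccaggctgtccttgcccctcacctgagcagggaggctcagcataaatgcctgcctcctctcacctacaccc
Lcn2: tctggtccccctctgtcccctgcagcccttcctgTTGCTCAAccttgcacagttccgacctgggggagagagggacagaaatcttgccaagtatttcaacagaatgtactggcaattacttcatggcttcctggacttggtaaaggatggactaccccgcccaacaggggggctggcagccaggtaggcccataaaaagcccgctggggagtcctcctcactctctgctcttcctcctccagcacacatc
Orm2: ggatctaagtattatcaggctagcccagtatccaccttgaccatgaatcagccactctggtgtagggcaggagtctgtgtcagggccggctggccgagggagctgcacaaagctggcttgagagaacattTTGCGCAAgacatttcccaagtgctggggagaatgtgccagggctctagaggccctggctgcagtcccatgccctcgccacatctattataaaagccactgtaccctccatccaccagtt
Orm3: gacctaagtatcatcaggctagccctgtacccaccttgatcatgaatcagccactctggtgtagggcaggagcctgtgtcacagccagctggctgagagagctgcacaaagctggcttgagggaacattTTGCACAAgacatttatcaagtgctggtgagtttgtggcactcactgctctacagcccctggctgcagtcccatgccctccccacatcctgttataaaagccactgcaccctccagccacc
The windows of *Saa1* and *Saa2* had the same base at 238 of 249 aligned positions (95.6%) and those of *Orm2* and *Orm3* at 218 of 245 (89.0%). The substitutions of *Saa2* nearest the start are T165A and C168A, 86 and 83 bases before it, and the others lie farther upstream. Positions count from 1 at the 5′ end of the *Saa1* window, with the *Saa1* base first. No substitution lies in the C/EBP match, and the part of any substitution in the RNA levels was not tested.

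Of the members, 8 had a window in the RefSeq table, and *Orm1* and *Hp* were not in it. Searched on both strands, the C/EBP motif TTGCNNAA was found in *Saa1* (182 to 175 bases before the start), *Saa2* (183 to 176), *Saa3* (99 to 92), *Saa4* (245 to 238, and again 52 to 45), *Orm2* (120 to 113), *Lcn2* (216 to 209) and *Hpx* (200 to 193), and in *Orm3* (121 to 114). This motif occurs in 9.57% of all 32536 windows of that length. The STAT motif TTCNNNGAA, present in 7.04% of windows, was found in *Apcs* (244 to 236). No member's window held the kappaB consensus (7.28% of windows) or the E-box CACGTG (6.04%), the core of the element that ChREBP binds. A match describes letters and not a bound site, and these windows end 250 bases before the start.

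By FPKM on the deposited exonic lengths, the members covered a wide range. Mean FPKM over the 6 libraries was 2297 for *Hp*, 1705 for *Hpx*, 1008 for *Orm1*, 204 for *Apcs*, 65.4 for *Saa4*, 51.5 for *Orm2*, 7.01 for *Lcn2*, 2.34 for *Saa1*, 1.76 for *Saa3* and 1.29 for *Saa2*. Neighbours in this order overlapped between libraries in each case but *Orm1* and *Apcs*. The FPKM of *Saa1*, *Saa2* and *Lcn2* are low partly by the length used: the deposited exonic lengths were 2478, 2518 and 2623 bases, against 609, 652 and 915 bases for the longest coding transcript in GENCODE M21, a ratio of 4.07, 3.86 and 2.87. Per length of that transcript, *Saa1* would stand at 15.5 ± 10.8 in KPF and 3.50 ± 1.27 in WPF (FPKM, mean ± SD, n = 3 dams each). On the same length *Saa2* would have means of 8.50 in KPF and 1.44 in WPF, and *Saa3* of 2.09 in each. The order of *Saa2* and *Saa3* thus depends on the length used. Together the members took 0.952, 0.603 and 0.645% of counted reads in KPF replicates 1, 2 and 3 and 0.780, 0.572 and 0.908% in WPF replicates 2, 3 and 4, so the groups overlapped. *Hp* and *Hpx* made up 77.6 to 88.5% of these reads.

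Between KPF and WPF, *Saa1*, *Saa2* and *Lcn2* were higher in KPF by at least 1.5-fold with an unadjusted p under 0.05 in edgeR's quasi-likelihood test, and no member was lower by that rule. Of the 10866 genes tested (mean FPKM of at least 1), 5.83% were called higher and 3.98% lower by the same rule, or 9.81% in either direction. At an adjusted p under 0.05, edgeR called no member and 0% of the tested genes, of which 1176 had an unadjusted p under 0.05 (10.8%). DESeq2 called 156 genes at an adjusted p under 0.05, among them *Saa1* (adjusted p = 0.00601) and *Saa2* (adjusted p = 0.0443). The same 3 members were called without KPF replicate 2, and without KPF replicate 1 the called members were *Saa1* and *Saa4*. Members had positive log2 fold changes in 8 cases and negative ones in 2, with a median of 0.46 against 0.02 over all genes tested. *Saa1* and *Saa2* entered the test only through KPF, since their mean FPKM in WPF, 0.86 and 0.37, was under the minimum, so these counts and this median describe the list and support nothing by themselves. In whole liver, fewer cells of a type and less RNA per cell cannot be told apart.

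**Figure D1:**
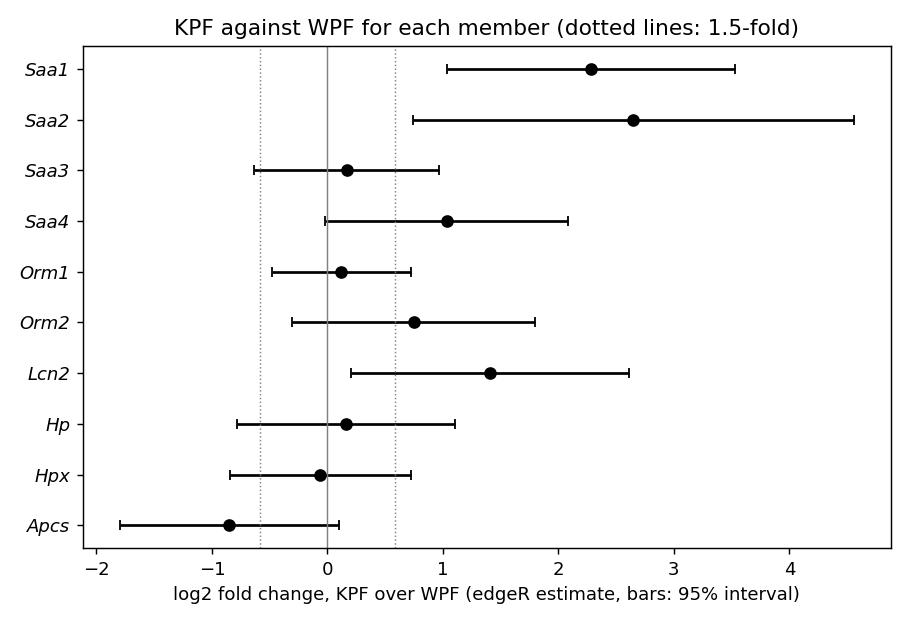
Log2 fold change of KPF over WPF for each of the 10 genes (points, edgeR estimate on the horizontal axis) with its 95% interval (bars), with dotted lines at 1.5-fold in either direction. The intervals of *Saa1*, *Saa2* and *Lcn2* lie above 0 and those of the other 7 include 0.

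*Saa1* (ENSMUSG00000074115, chromosome 7 from 46389921 to 46392404 on the minus strand, GRCm39) codes for one of the inducible serum amyloids A, apolipoproteins that ride on high-density lipoprotein. It measured 17.2, 8.07 and 4.28 CPM in the KPF libraries and 1.40, 2.42 and 2.2 CPM in the WPF ones. All 3 KPF dams were above all 3 WPF dams, and within KPF the highest library was 4.01 times the lowest, against 1.73 times in WPF. The means were 9.85 ± 6.63 and 2.01 ± 0.54 CPM (SD, n = 3 each, exact two-sided permutation test, p = 0.1, the smallest it can give). The fold was 4.87, a log2 fold change of 2.28 (SE 0.54, 95% interval 1.04 to 3.53, unadjusted p = 0.00310, adjusted p = 0.416, edgeR). Without KPF replicate 1 the log2 fold change of *Saa1* was 1.61 (edgeR, unadjusted p = 0.00875), and *Saa1* was called higher with any 1 library left out.

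*Saa2* (ENSMUSG00000057465, chromosome 7 from 46401214 to 46403737 on the plus strand), the neighbouring inducible copy, had 12.7, 3.32 and 1.17 CPM in KPF dams against 0.963, 0.997 and 0.772 CPM in WPF dams. The groups did not overlap (exact two-sided permutation test, p = 0.1), but KPF replicate 3 was above WPF only by a narrow margin, with 12 reads against 11 to 14 reads in the larger WPF libraries. Of the genes tested, 15.7% had no overlap, 7.55% with every KPF library above and 8.15% with every one below the WPF libraries. The log2 fold change of *Saa2* was 2.65 (SE 0.82, 95% interval 0.74 to 4.56, unadjusted p = 0.0130, adjusted p = 0.430, edgeR). It rested largely on KPF replicate 1, since without that library it was 1.30 and no longer called (edgeR, unadjusted p = 0.0580).

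Longest coding transcripts of *Saa1* and *Saa2* were the same at 572 of 606 aligned bases (94.4%). None of the 460 stretches of 150 bases of the *Saa1* transcript occurred in that of *Saa2* without a mismatch. Whether reads were split or dropped between the copies in the counting was not tested. With both counts summed, the values were 29.9, 11.4 and 5.45 CPM in KPF and 2.36, 3.42 and 2.97 CPM in WPF. The summed log2 fold change of 2.41 (SE 0.60, unadjusted p = 0.00408, adjusted p = 0.429, edgeR) does not depend on how reads were shared between the copies, although reads that were dropped as ambiguous would be missing from it. The ratio of *Saa1* to *Saa2* reads was between 1.35 and 3.67 in KPF and between 1.45 and 2.85 in WPF.

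*Saa3* (ENSMUSG00000040026, chromosome 7 from 46361422 to 46365124 on the minus strand), a serum amyloid also made by macrophages and adipocytes, gave 3.96, 5.38 and 5.26 CPM in the KPF group, with 2.89, 4.41 and 5.64 CPM in the WPF group. The highest and the lowest library were both WPF, and the difference was smaller than the spread between dams (log2 fold change 0.17, 95% interval -0.63 to 0.97, adjusted p = 0.870, edgeR). Its sign depended on the scaling, as scaling by library totals alone gave -0.0045. Macrophage markers lay within a similar range, with 10 Kupffer cell genes summing to between 202 and 276 CPM in KPF and between 192 and 394 CPM in WPF. None of them was called, against 9.81% of all genes tested in either direction. WPF replicate 4 was highest both for that sum and for *Saa3*. Whether macrophages contributed to *Saa3* was not tested.

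*Saa4* (ENSMUSG00000040017, chromosome 7 from 46377422 to 46382027 on the minus strand) codes for the constitutive serum amyloid A, which liver makes without inflammation. It measured 99.1, 299.5 and 160 CPM in the KPF libraries and 78.4, 65.7 and 129 CPM in the WPF ones. Here KPF replicate 2 was the highest library and KPF replicate 1, the highest for *Saa1* and *Saa2*, was below WPF replicate 4, so that the groups overlapped. The log2 fold change was 1.03 (SE 0.45, 95% interval -0.02 to 2.08, unadjusted p = 0.0530, adjusted p = 0.464, edgeR), just outside the rule. It was 0.50 without KPF replicate 2, and with edgeR it passed the rule without KPF replicate 1 (1.34, unadjusted p = 0.0150) or WPF replicate 4 (1.36, unadjusted p = 0.0288). With all 6 libraries *Saa4* passed the rule in DESeq2 (1.04, unadjusted p = 0.0212) and in edgeR without a filter on low values (0.97, unadjusted p = 0.0165), so that 4 members were called higher in each.

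**Figure D2:**
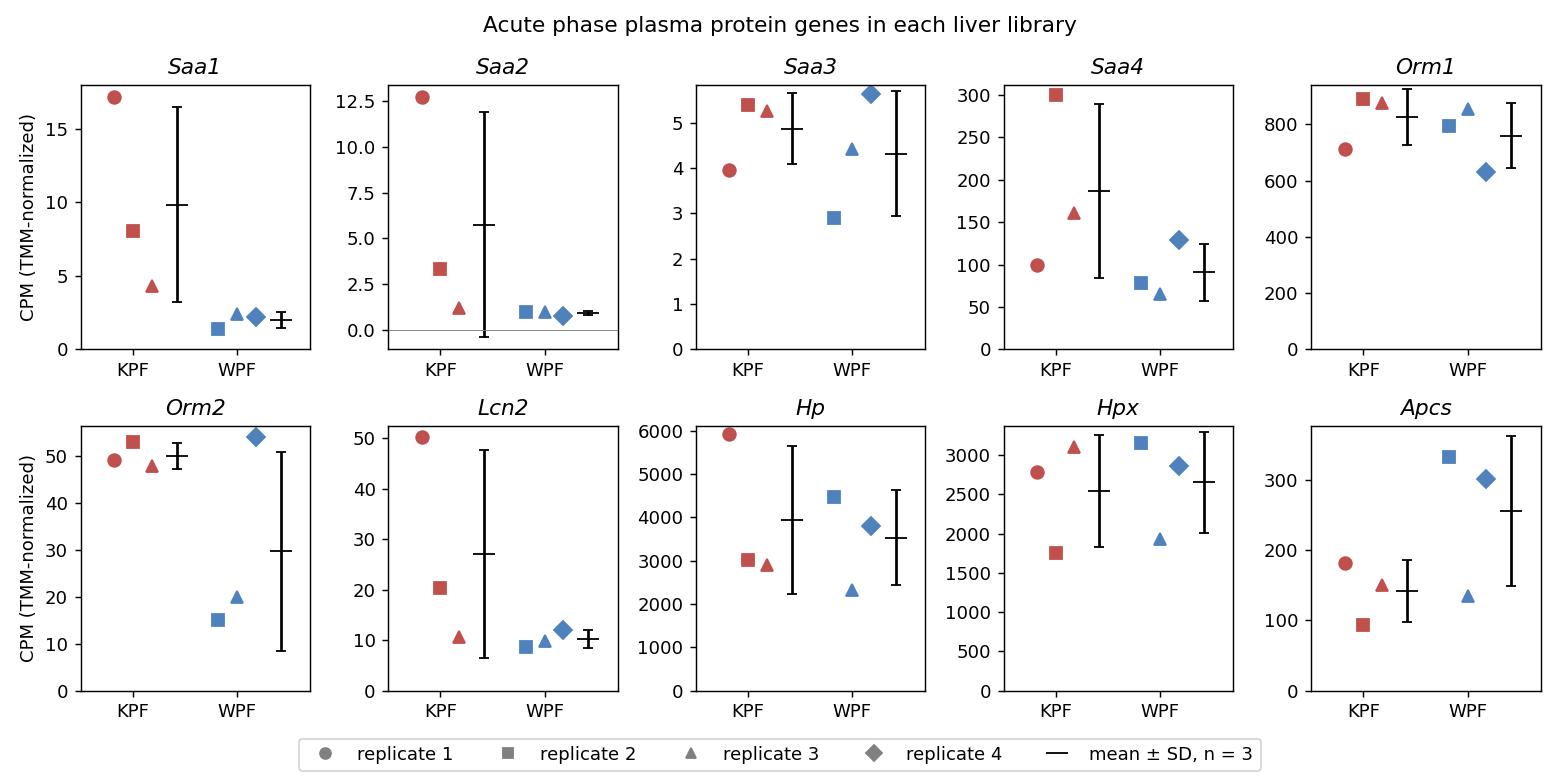
TMM-normalized CPM (vertical axes, 1 scale for each gene) of the 10 genes in each KPF and WPF library (symbols mark the replicate number), with mean ± SD (n = 3 dams) beside each group. KPF replicate 1 is the highest library for *Saa1* (17.2 CPM), *Saa2* (12.7), *Lcn2* (50.2) and *Hp* (5924), and KPF replicate 2 for *Saa4* (299.5) and *Orm1* (892).

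Orosomucoids, or alpha-1-acid glycoproteins, are plasma carriers of small lipophilic and basic molecules. *Orm1* (ENSMUSG00000039196, chromosome 4 from 63262797 to 63266400 on the plus strand), the main liver copy, had 713, 892 and 875 CPM in KPF dams against 795, 853 and 631 CPM in WPF dams. It was the steadiest member, with the highest library 1.41 times the lowest. Its log2 fold change was 0.12 (95% interval -0.48 to 0.72, adjusted p = 0.875, edgeR), and -0.00019 with library totals.

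*Orm2* (ENSMUSG00000061540, chromosome 4 from 63280686 to 63284115 on the plus strand) was nearly level in KPF, at 49.1, 53.0 and 47.8 CPM, and spread in WPF, at 15.2, 19.9 and 54.1 CPM in replicates 2, 3 and 4. WPF replicates 2 and 3 were below all KPF dams, whereas WPF replicate 4 was above them. The log2 fold change was 0.75 (SE 0.45, 95% interval -0.30 to 1.80, unadjusted p = 0.139, adjusted p = 0.575, edgeR). Leaving out WPF replicate 4 brought it to 1.5 and inside the rule (edgeR, unadjusted p = 0.000548). *Orm1* reads were 14.5 to 18.3 times *Orm2* reads in KPF, 52.5 and 42.8 times in WPF replicates 2 and 3, and 11.7 times in WPF replicate 4.

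*Orm3*, the third copy and outside the list, gave 12.3, 324 and 7.20 CPM in the KPF group, with 5.08, 3.84 and 2.73 CPM in the WPF group. KPF replicate 2, the library with the muscle reads, was 26.5 times the next highest, whereas for *Orm1* it was 1.02 times the next highest and for *Orm2* it was not the highest. Transcripts of the copies were 87.6 to 91.0% identical, and none of the stretches of 150 bases of one occurred in another without a mismatch. Summed over *Orm1*, *Orm2* and *Orm3*, the log2 fold change was 0.32 (SE 0.29, unadjusted p = 0.295, adjusted p = 0.697, edgeR), and over *Orm1* and *Orm2* alone, a sum added after the data were seen, it was 0.15.

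*Lcn2* (ENSMUSG00000026822, chromosome 2 from 32274645 to 32278264 on the minus strand) codes for lipocalin 2, which binds iron-laden bacterial siderophores and is made by stimulated hepatocytes and by neutrophils. It measured 50.2, 20.4 and 10.7 CPM in the KPF libraries and 8.58, 9.90 and 12.1 CPM in the WPF ones. KPF replicates 1 and 2 were above WPF, and KPF replicate 3 lay within it, so that there was overlap (p = 0.2, exact permutation test, two-sided). The means were 27.1 ± 20.6 and 10.2 ± 1.78 CPM (SD, n = 3 dams each), a 2.65-fold difference. The log2 fold change was 1.41 (SE 0.52, 95% interval 0.20 to 2.61, unadjusted p = 0.0274, adjusted p = 0.430, edgeR). Without KPF replicate 1 it was 0.61 and outside the rule (edgeR, unadjusted p = 0.118), as it also was without WPF replicate 2 (unadjusted p = 0.0818) or WPF replicate 3 (unadjusted p = 0.0696).

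Neutrophil markers stayed low in all libraries. The 10 genes summed to 5.02, 8.07 and 4.19 CPM in the KPF libraries against 3.59, 4.63 and 4.81 CPM in the WPF libraries, with 2 of them tested and none called. KPF replicate 2 was the highest for these markers and KPF replicate 1 for *Lcn2*. Stellate cell and fibroblast genes summed to 237 CPM in KPF replicate 1 against 122 and 119 CPM in the other KPF libraries and 77.9 to 101 CPM in WPF, with 2 of 6 called higher, *Col1a1* (collagen I) and *Reln* (reelin). KPF replicate 2 and KPF replicate 1 also had the most reads of 5 adipocyte genes, 23.7 and 5.79 CPM against at most 2.14 CPM elsewhere, with 1 of the 5 at 0 reads in all libraries. Only 1 of the 5 was tested, *Cfd*, and it was called higher. In the other marker lists, 1 gene each was called higher for sinusoidal endothelium (5 of 5 tested), mesothelium (1 of 4 tested) and lymphocytes (2 of 4 tested). None was called for cholangiocytes (1 of 4 tested), erythroid cells (5 of 5 tested) or exocrine pancreas (1 of 4 tested). Over all genes tested, 5.83% were called higher by the same rule. The part of the cells of these marker lists in the values of *Saa1*, *Saa2*, *Saa4*, *Orm3* and *Lcn2* was not tested.

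*Hp* and *Hpx* code for the plasma scavengers of free haemoglobin and free haem, haptoglobin and hemopexin. *Hp* (ENSMUSG00000031722, chromosome 8 from 110301760 to 110305804 on the minus strand) had 5924, 3022 and 2910 CPM in KPF dams against 4474, 2319 and 3813 CPM in WPF dams. KPF replicate 1 was again the highest, but the other KPF libraries lay inside the range of WPF. The log2 fold change was 0.16 (95% interval -0.78 to 1.10, adjusted p = 0.900, edgeR), and its sign turned without KPF replicate 1 (-0.25) or WPF replicate 3 (-0.07).

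*Hpx* (ENSMUSG00000030895, chromosome 7 from 105240820 to 105249344 on the minus strand) gave 2780, 1748 and 3102 CPM in the KPF group, with 3160, 1934 and 2864 CPM in the WPF group. The groups covered nearly the same range, with a log2 fold change of -0.06 (95% interval -0.85 to 0.73, adjusted p = 0.959, edgeR). Its sign turned without KPF replicate 2 (0.14) or WPF replicate 2 (0.08). Erythroid genes, which carry haemoglobin RNA, summed to 518, 105 and 291 CPM in KPF and to 48.1, 126 and 329 CPM in WPF. KPF replicate 1 was the highest library both for this sum and for *Hp*, and the part of blood cells in the values of *Hp* was not tested.

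*Apcs* (ENSMUSG00000026542, chromosome 1 from 172721528 to 172722608 on the minus strand) codes for serum amyloid P component, the main acute phase pentraxin of the mouse. It was the 1 member other than *Hpx* with a negative log2 fold change. It measured 182, 93.9 and 150 CPM in the KPF libraries and 332, 134 and 301 CPM in the WPF ones. WPF replicates 2 and 4 were above all KPF libraries, and WPF replicate 3 lay within KPF. The log2 fold change was -0.85 (SE 0.41, 95% interval -1.80 to 0.10, unadjusted p = 0.0725, adjusted p = 0.491, edgeR), outside the rule, and -1.16 and inside it without WPF replicate 3 (edgeR, unadjusted p = 0.0166). *Crp*, the other short pentraxin, had 60.0, 55.2 and 94.9 CPM in KPF dams against 85.7, 83.4 and 143 CPM in WPF dams, a log2 fold change of -0.57 (edgeR, adjusted p = 0.552).

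The members did not share 1 order of the dams. KPF replicate 1 was the highest library for 4 members, KPF replicate 2 for 2, WPF replicate 2 for 2 and WPF replicate 4 for 2. The measure of likeness was the root mean square difference of 2 genes' log2 CPM over the 6 libraries, each centred on its mean, a description with no test. The closest pairs were *Saa3* with *Orm1* (0.35), *Hp* with *Hpx* (0.38), *Saa1* with *Saa2* (0.41), *Saa2* with *Lcn2* (0.41) and *Saa1* with *Lcn2* (0.41). The farthest was *Saa1* with *Apcs* (1.54). A small value also arises when both genes vary little, whether or not they rise and fall together. For the closest pair, WPF replicate 4 was the highest library for *Saa3* and the lowest for *Orm1*. All points share library and depth, and a gene with few reads carries counting error into this measure.

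Among all tested genes outside the list, the 3 most like *Saa1* were *Sh3d21* (0.26), *Gm45203* (0.28) and *Snora57* (0.29). For *Lcn2* they were *1810009A15Rik* (0.23), *Snora57* (0.24) and *Zfas1* (0.24), the last a host of small nucleolar RNAs, at 58.1, 28.3 and 17.4 CPM in KPF and 16.1 to 17 CPM in WPF. For *Hp* they were *Trappc6a* (0.05), *Serpina3k* (0.11), itself an acute phase serpin, and *Gfra1* (0.14), and for *Apcs* *Hmga1* (0.28), *Plac8* (0.29) and *Grpel1* (0.31).

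**Figure D3:**
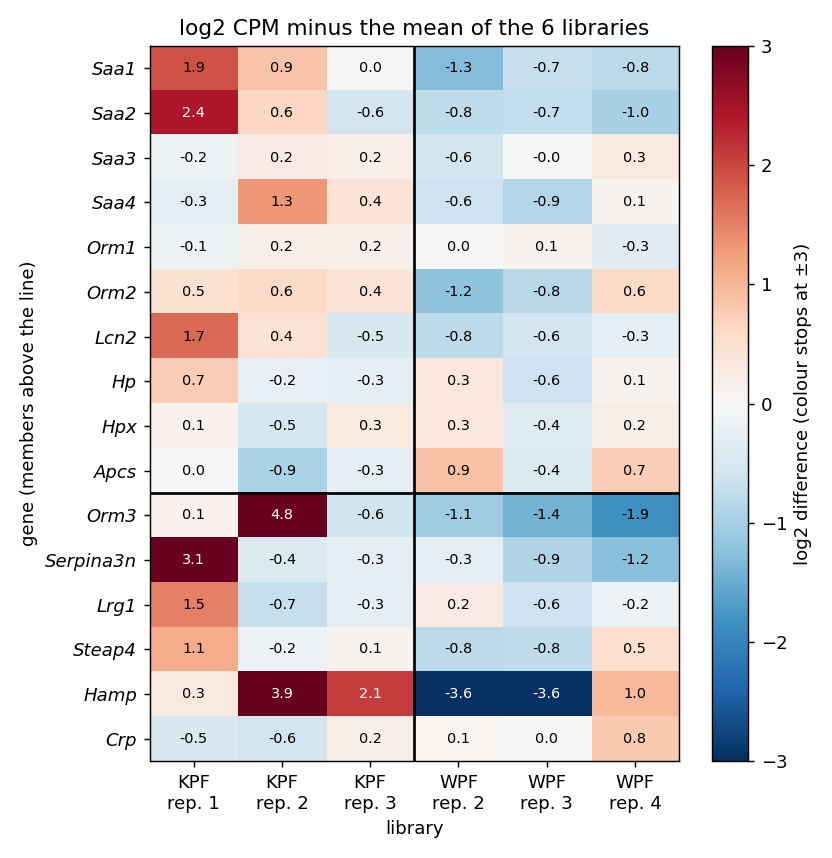
Log2 CPM of each gene minus its mean over the 6 libraries (colour and printed value, colour stops at 3 in either direction), with the 10 members above the line and 6 other acute phase genes below it, libraries in columns. KPF replicate 1 is high for *Saa1*, *Saa2*, *Lcn2* and *Serpina3n* and KPF replicate 2 for *Saa4*, *Orm3* and *Hamp*. Of the 6 other genes, *Hamp*, *Lrg1* and *Steap4* were picked after their values were seen, and *Serpina3n* because it was called. The 6 do not stand for their list, in which 12 of 25 tested genes had a positive log2 fold change and 13 a negative one.

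Of 28 other positive acute phase genes, 25 were tested, 2 were called higher and none lower, with a median log2 fold change of -0.05. Over all genes tested, 5.83% were called higher and 3.98% lower. The called genes of this list were *Orm3* (4.89, edgeR, unadjusted p = 0.0107) and *Serpina3n*, a secreted serine protease inhibitor (2.51, unadjusted p = 0.0320 in edgeR). *Serpina3n* gave 2305, 197 and 224 CPM in the KPF group, with 223, 144 and 112 CPM in the WPF group, and KPF replicate 1 was 10.3 times the next highest library. Of the 35 positive acute phase genes tested, members included, KPF replicate 1 was the highest library for 12, WPF replicate 2 for 12, WPF replicate 4 for 6, KPF replicate 2 for 4, KPF replicate 3 for 1 and WPF replicate 3 for 0. Over all tested genes these shares were 22.6, 13.8, 16.6, 19.3, 13.6 and 14.1%.

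None of the 22 tested genes of the 27 in the list of inducing signals (cytokine receptors, JAK and STAT proteins, C/EBP and NF-kappaB factors) was called. Over all genes tested, 9.81% were called in either direction, a share that gives few calls in a list this short. The list's median log2 fold change was -0.07, with a range from -0.48 to 0.43. The smallest p were those of *Nfkb2*, an NF-kappaB subunit (0.43, edgeR, unadjusted p = 0.0635), and *Tnfrsf1a*, a receptor of tumour necrosis factor (-0.40, edgeR, unadjusted p = 0.0998). *Socs3*, the feedback inhibitor that STAT3 induces, measured 21.9, 17.6 and 14.5 CPM in the KPF libraries and 13.5, 15.0 and 27.8 CPM in the WPF ones, and was picked after its values were seen.

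Negative acute phase genes code for plasma proteins that fall during inflammation. All 14 were tested, 2 were called lower and none higher, 10 had a negative log2 fold change, and the median was -0.25. Over all genes tested, 3.98% were called lower and 5.83% higher, and the median was 0.02. *Serpina7*, which codes for thyroxine-binding globulin, had 9.65, 2.69 and 12 CPM in KPF dams against 21.5, 45.2 and 21.8 CPM in WPF dams, a log2 fold change of -1.87 (edgeR, unadjusted p = 0.00988, adjusted p = 0.430) without overlap of the groups. *Apoa2*, an apolipoprotein of high-density lipoprotein, had a log2 fold change of -0.79 (edgeR, unadjusted p = 0.0403). Of the 20 receptors and partners of the members, 14 were tested and none was called, with a median of 0.01. The smallest p of those tested were those of *Scarb1*, the HDL receptor that also takes up serum amyloid A (-0.47, edgeR, unadjusted p = 0.0837), and *Fcgr2b*, an inhibitory Fc receptor (0.39, edgeR, unadjusted p = 0.0851).

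**Figure D4:**
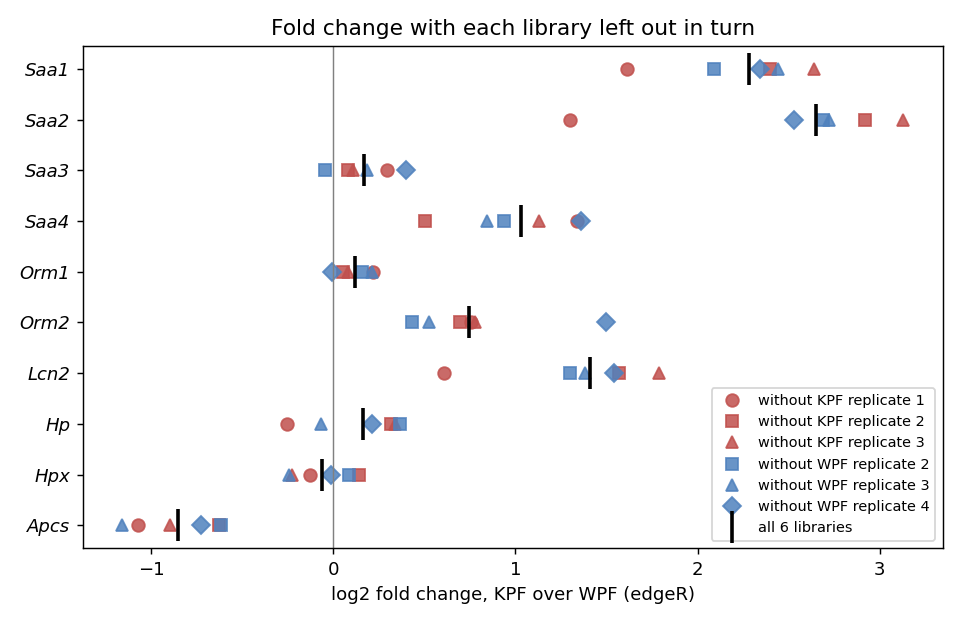
Log2 fold change of KPF over WPF for each of the 10 genes (horizontal axis) with all 6 libraries (black bars) and with each library left out in turn (symbols). *Saa1* runs from 1.61 to 2.64, *Saa2* from 1.30 to 3.13 and *Lcn2* from 0.61 to 1.79, each lowest without KPF replicate 1, whereas *Orm2* is highest, at 1.5, without WPF replicate 4.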

How the data were processed

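Liver poly(A) RNA of 3 KPF and 3 WPF dams was sequenced in paired reads of 150 bases. The authors deposited 1 table with raw read counts per Ensembl gene, FPKM values, and the exonic length and position of each gene. The deposited FPKM equal the counts over that length and the library's total, to within 0.005. The submitters' processing notes name cutadapt 1.9.1, HISAT2 2.2.1, HTSeq 0.6.1, DESeq2 and GRCm39; settings and strand are not given in the sources used here. Symbols came from GENCODE M21 (52073 IDs matched, 4618 did not), and positions are those of the table.

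Counts were scaled by TMM (factors 0.888 to 1.18) and tested with edgeR 4.0.16 (quasi-likelihood, R 4.3.3) over the 10866 genes at or above a mean FPKM of 1, with Benjamini-Hochberg adjustment. A gene was called at an unadjusted p under 0.05 and at least 1.5-fold, and calls at an adjusted p under 0.05 are given beside it. Unadjusted p rest on the model, since an exact permutation test of 3 dams against 3 cannot go below 0.1. Alternatives were DESeq2 1.42.0, limma 3.58.1 on log2(FPKM + 1) and log2(FPKM + 0.1), other scalings and filters, each library left out, the replicate number as a block and summed copies. The scripts were tested on simulated data. Libraries within a group all differed beyond sampling noise (chi-square per gene of 48.1 or more in each pair). The labels number the samples of a group, and the study's methods describe them as separate mice. Reads carry no molecular identifiers.

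The members, lists and markers were chosen with earlier results of these data known. Named were every member, *Orm3*, *Crp* and *Mlxipl*, the called genes of each list or else the tested genes with the smallest p, and the 3 genes most like *Saa1*, *Lcn2*, *Hp* and *Apcs*. The text says where other genes were picked after their values were seen. Upstream windows were RefSeq's for GRCm38.p6, and no coordinate was carried between builds.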

Additional observations from a re-analysis of the deposited data

How the results depend on the processing

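*Saa1* was called higher in KPF under all 13 alternatives run for it, with log2 fold changes from 1.24 to 2.64 and adjusted p from 0.00601 (DESeq2) to 0.823. These fits share the same dams, and most keep the filter that *Saa1* passes only through KPF. Their agreement is therefore not separate evidence. Genes with an adjusted p under 0.05 numbered 156 with DESeq2 and 286 without a filter on low values, against 0 in edgeR, and 0 to 5 with 1 library left out. Without the filter the adjusted p in edgeR was 0.0168 for *Saa1*, 0.0487 for *Saa2* and 0.105 for *Lcn2*. Genes called higher and lower, 634 and 432, numbered 371 and 716 with library totals, 1576 and 910 without a filter, 255 and 205 at a mean FPKM of at least 5, 237 and 540 with limma on log2(FPKM + 1), 288 and 700 on log2(FPKM + 0.1), and 324 to 910 and 246 to 709 with 1 library left out. The median log2 fold change of all genes was 0.02 with TMM and -0.12 with library totals or with limma on log2(FPKM + 0.1). Members called higher numbered 4 (*Saa1*, *Saa2*, *Lcn2* and *Saa4*) with DESeq2 and without a filter, 1 (*Saa1*) with limma at either pseudocount and 2 to 5 with 1 library left out. The 5 were reached without WPF replicate 4, and the members called higher without KPF replicate 1 were *Saa1* and *Saa4*. Members called lower numbered 1 (*Apcs*) with library totals, with DESeq2 and without a filter, and 0 to 1 with 1 library left out. Members' median log2 fold change ran from 0.30 to 0.88. The sign turned for *Saa3* with library totals (-0.00446) and without WPF replicate 2 (-0.0476), and for *Orm1* with library totals (-0.000188) and without WPF replicate 4 (-0.00512). It also turned for *Hp* without KPF replicate 1 (-0.253), without WPF replicate 3 (-0.0681) and under the replicate block (-0.119), and for *Hpx* without KPF replicate 2 (0.143) and without WPF replicate 2 (0.0845). With 1 library left out, the ranges were -0.0476 to 0.4 for *Saa3*, -0.00512 to 0.217 for *Orm1*, -0.253 to 0.366 for *Hp* and -0.244 to 0.143 for *Hpx*. The cause was not tested. Replicate numbers 2 and 3 occur in both groups but stand for different dams, and the deviations of same-numbered libraries correlated by 0.0448 and -0.0168. A fit with the number as a block gave 680 genes higher and 551 lower and log2 fold changes of 1.64 for *Saa1*, 1.04 for *Saa2*, 0.68 for *Lcn2*, 1.61 for *Saa4* and 1.53 for *Orm2*, and it called *Saa1*, *Saa4* and *Orm2*. At a mean FPKM of at least 5 *Saa1*, *Saa2* and *Saa3* were not tested, and member counts were not made with copies summed. Depth limits *Saa2* most, with 11 to 14 reads in each WPF library.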

Other observations

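*Hamp*, which codes for the iron hormone hepcidin, had 35.0, 428 and 124 CPM in the KPF libraries (replicates 1, 2 and 3) against 1.84, 1.92 and 56.3 CPM in the WPF ones (replicates 2, 3 and 4), with a log2 fold change of 3.28 (SE 1.47, unadjusted p = 0.0580, adjusted p = 0.466, edgeR). KPF replicate 2 was the highest library, and WPF replicate 4 lay between KPF replicates 1 and 3. *Lrg1*, a leucine-rich plasma glycoprotein, was highest in KPF replicate 1, at 580 CPM against at most 241 CPM elsewhere. *Steap4*, a metalloreductase, stood at 27.4 CPM in that library and at most at 17.8 CPM elsewhere. The metallothionein gene *Mt1* was highest in WPF replicate 4, at 1526 CPM, and *Mt2* likewise, at 633 CPM. *Hamp*, *Lrg1*, *Steap4*, *Mt1* and *Mt2* were picked after their values were seen, and none of them was called.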
